A study of Homo sapiens with 4 samples.

Results

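The genes described here are the cadherin superfamily and the catenins: every gene whose symbol marks it as a classical or type II cadherin (CDH), a protocadherin (PCDH), a desmosomal cadherin (DSC or DSG), a FAT or CELSR giant cadherin, or an alpha or delta catenin (CTNNA or CTNND). By symbol alone, 104 of the 19626 genes in the deposited tables qualified. They were measured by RNA-seq in ES-2, an established human line of ovarian cancer that the labels place with ovarian clear cell carcinoma and that carries an endogenous YAP1-MAML2 (YM) fusion. All cells were transduced with pLKO.1 lentivirus, by the labels for 8 h on each of 2 days in a row, whereas the study's general methods give another schedule. They received either a non-targeting control shRNA (shCtl, n = 2 biological replicates) or an shRNA against MAML2 (shMAML2, n = 2), and RNA was taken 96 h after the first infection according to the labels, whereas the study's methods give a shorter time. The MAML2 shRNA acts on native MAML2 and on the fusion alike, 1 such shRNA was sequenced, and the cell line is the only one in the comparison, so the 2 groups differ by 1 hairpin in 1 line.

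Classical cadherins hold neighbouring cells together through their extracellular domains and are tied to actin by beta-catenin and alpha-catenin, while delta-catenins keep them at the cell surface. Desmosomal cadherins connect instead to intermediate filaments. The clustered protocadherins are encoded in neighbouring alpha, beta and gamma arrays in which each variable exon has its own promoter, and neurons are known for expressing them in combinations that differ from cell to cell; FAT and CELSR cadherins act in growth control and planar cell polarity.

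The libraries held between 20051083 and 23978660 estimated counts. MAML2, the targeted gene, had 1436 and 1402 counts under shCtl and 634 and 553 under shMAML2, a log2 fold change of -1.40 (SE 0.0688, adjusted p = 5.18e-10, quasi-likelihood test of edgeR). Of the markers of the labelled tissue, NAPSA and PAX8 stayed at or below an RPKM of 0.369 in every library while ANXA4 was between 4.43 and 6.22. The epithelial marker EPCAM was at or below 0.150, and VIM, a mesenchymal intermediate filament gene, was between 2037 and 2969. Of the mesenchymal markers, VIM (log2 fold change -0.44) and SNAI2 (-0.33) were lower and ZEB1 (0.52) higher in shMAML2, none by 2-fold. RPKM relates the reads of a gene to transcript length and library size. The keratins KRT7, KRT8 and KRT18 were between 29.1 and 299, and all 3 were lower in shMAML2, with log2 fold changes of -1.26, -1.22 and -0.68, the last being short of 2-fold. Of 5 fibroblast markers, PDGFRA alone passed an RPKM of 1 and was higher in shMAML2, and the summed level of the list went from between 7.94 and 8.00 to between 25.0 and 25.7, with COL1A2, COL3A1, DCN and LUM each at or below 0.413. Neural and leukocyte markers were read too: RBFOX3, PTPRC and CD3E lay at or near 0, CD68 was 57.1 in shCtl and 38.4 in shMAML2, and CD14 was 0.0898 and 0.878. Of the other neural markers, MAP2 was 1.55 and 1.46, NCAM1 0.903 and 1.34, and SYP 0.113 and 0.292. The part of these markers in the results that follow was not tested. A change in RNA per cell and a change in the share of cells that make it cannot be told apart in such bulk samples.

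Most members were barely expressed in ES-2 cells. Among those that could be tested, higher levels after MAML2 knockdown were more frequent than lower ones, but mainly through the clustered protocadherins. The test took in genes that passed an RPKM of 1 in 1 or more libraries, which kept 28 of the 104 members and 12157 genes in all. A gene was called when its adjusted p was 0.05 or less and its fold change 2 or more. On that rule 14 members were called higher in shMAML2, against 9.24% of all genes tested, and 4 were called lower, against 8.93%. The 10 others were not called, but 8 of these reached an adjusted p of 0.05 or less at a smaller fold change, so that 26 of 28 passed on the adjusted p alone, beside 72.7% of all genes tested. The median log2 fold change was 0.98 over the tested members and -0.0037 over all genes tested. Clustered protocadherins made up 11 of the 14 higher members and 0 of the lower ones, with a median of 1.43. Outside the clusters, 1 CDH gene, 1 CELSR gene and 1 other protocadherin were called higher. The lower calls were 3 CDH genes and 1 other protocadherin. Family medians there lay between -0.52 (desmosomal) and 1.38 (CELSR), with -0.06 for the CDH genes. The filter itself favours some of these calls and bears on the median of the tested members. It let in 10 of the 14 higher members through shMAML2 libraries only and 2 of the 4 lower members through shCtl libraries only. Members of that kind were tested because of the group in which they were higher, so the median is not a measure free of the filter. With no filter on low values the median of the members was 0.77. Of the 16 members above an RPKM of 1 in both groups, 4 were called higher and 2 lower. As a share of all counts in a library, the 104 members together made up between 0.151% and 0.154% in shCtl and between 0.229% and 0.232% in shMAML2.

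**Figure D1:**
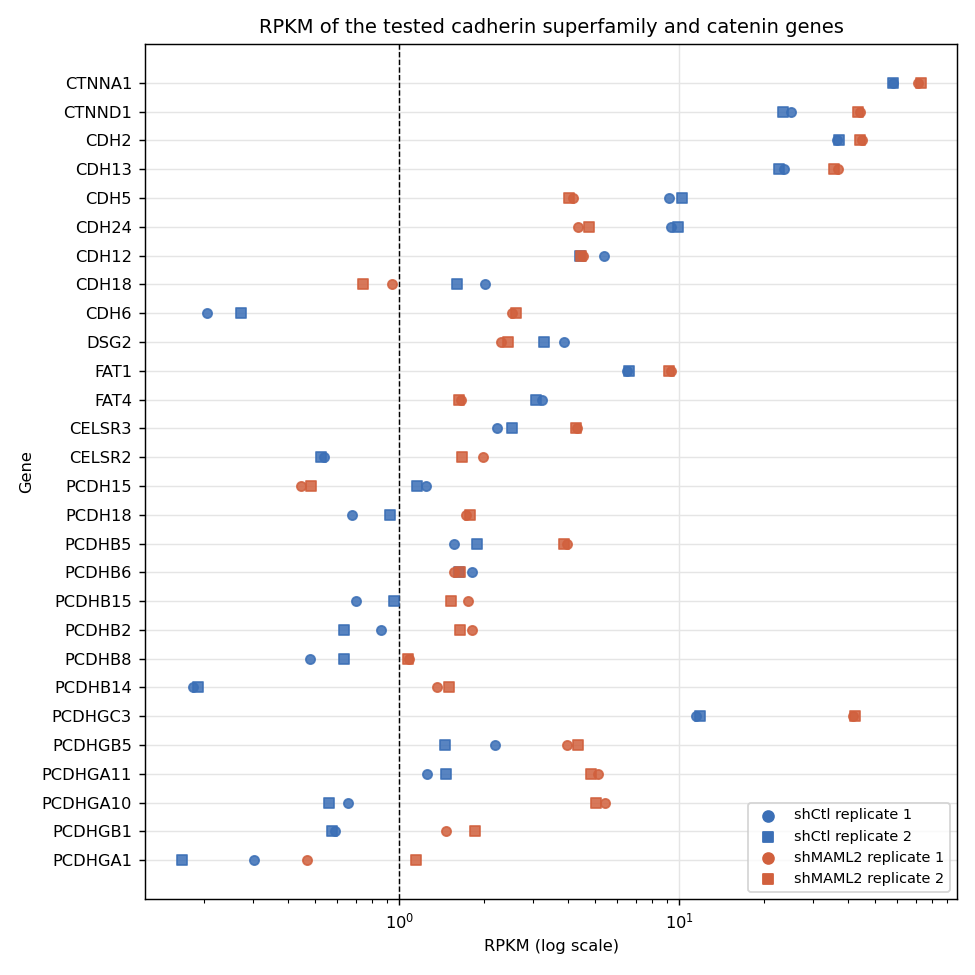
RPKM (log scale) of the 28 tested members in each of the 4 libraries, grouped by family from catenins at the top to the gamma protocadherins at the bottom; blue marks shCtl, red shMAML2, circles replicate 1, squares replicate 2, and the dashed line is the RPKM limit of 1. Of the clustered protocadherins at the bottom, all but PCDHB6 lie further right in shMAML2 than in shCtl, PCDHGC3 at the highest level, whereas CDH5, CDH24, CDH18, DSG2, FAT4 and PCDH15 lie to the left in shMAML2.

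**Figure D2:**
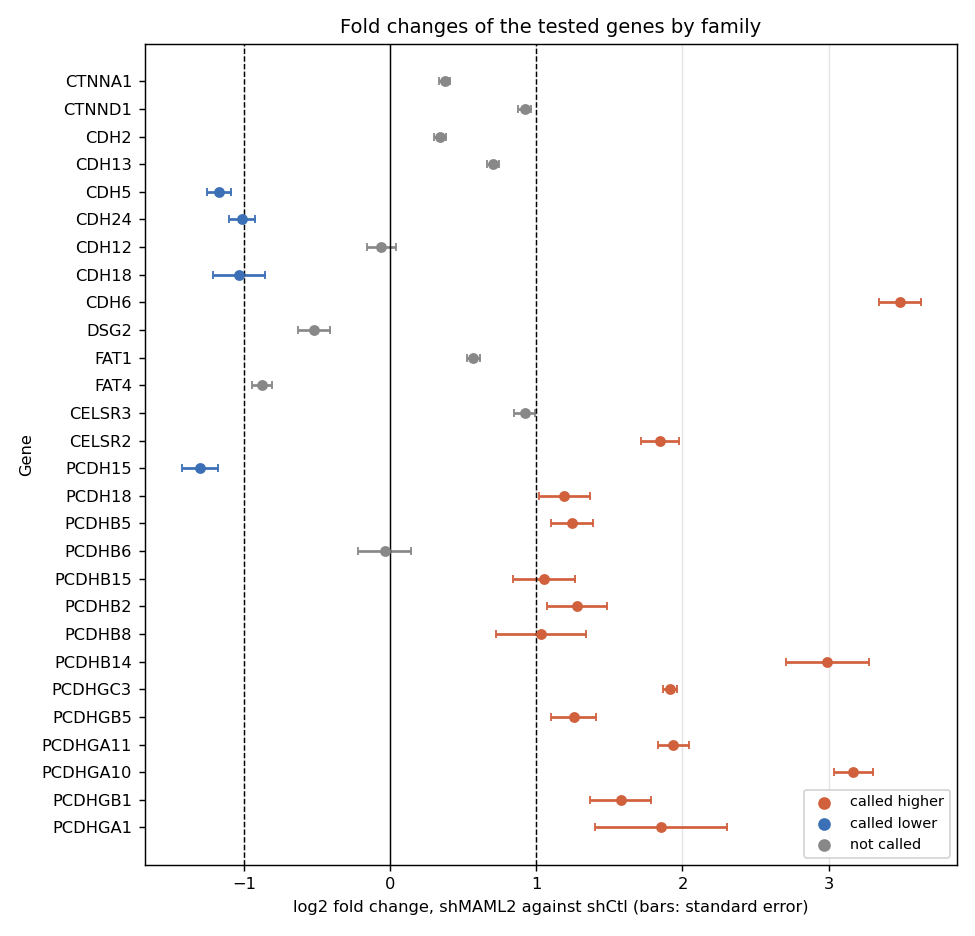
log2 fold change of shMAML2 against shCtl for the same 28 members (points) with its standard error (bars), with dashed lines at the 2-fold limit. The largest increases were those of CDH6 (3.49), PCDHGA10 (3.17) and PCDHB14 (2.99), and the lowest value was that of PCDH15 (-1.30).

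The CDH family showed changes in opposite directions. Of its 20 members 7 were tested, of which 1 rose, 3 fell and 3 were not called, against 9.24% higher and 8.93% lower over all genes tested. CDH6, the one that rose, passed the filter in shMAML2 libraries only, and CDH18, which fell, in shCtl libraries only. The summed RPKM of the family was 87.1 ± 0.0762 (SD, n = 2) in shCtl and 98.2 ± 1.14 in shMAML2. The 2 most abundant members were CDH2 and CDH13. CDH2 (N-cadherin, chr18:27932879-28177946, minus strand), the classical cadherin of mesenchymal and neural cells, had an RPKM of 36.5 and 37.1 in shCtl and of 44.8 and 44.2 in shMAML2. Both shMAML2 libraries lay above both shCtl libraries, but its log2 fold change of 0.34 (SE 0.0413, adjusted p = 5.83e-06, edgeR) was short of the 2-fold limit. CDH13 (T-cadherin, chr16:82626965-83800640), which is anchored to the membrane by a lipid and has no cytoplasmic tail, went from 23.7 and 22.7 to 36.7 and 35.6, with a log2 fold change of 0.70 (SE 0.0423, adjusted p = 4.35e-09, edgeR) that was also below the limit. Together they formed the bulk of the family's RPKM: CDH2 held 42.3% in shCtl and 45.3% in shMAML2, and CDH13 26.6% and 36.8%.

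CDH6 (K-cadherin, chr5:31193686-31329146, plus strand), a type II cadherin of kidney and of ovarian carcinoma, rose the most of all tested members. Its counts were 48 and 65 in shCtl and 722 and 677 in shMAML2, and its RPKM went from 0.239 ± 0.0481 (SD, n = 2) to 2.57 ± 0.0641. The log2 fold change was 3.49 (SE 0.142, adjusted p = 7.17e-11, edgeR), or 11.2-fold, and it lay between 3.30 and 3.70 when any 1 library was left out. CDH6 was still a small part of the family, at 0.274% of its RPKM in shCtl and 2.61% in shMAML2. CDH12, a type II cadherin of the nervous system, was tested at 5.39 and 4.43 in shCtl and 4.53 and 4.47 in shMAML2, so that the groups overlapped (log2 fold change -0.06, SE 0.0997, adjusted p = 0.607, edgeR).

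CDH5, CDH24 and CDH18 fell. CDH5 (VE-cadherin, chr16:66366690-66404784, plus strand), the junctional cadherin of endothelial cells, had an RPKM of 9.14 and 10.2 in shCtl and of 4.17 and 4.03 in shMAML2. Its log2 fold change was -1.17 (SE 0.0844, adjusted p = 2.94e-08, edgeR), and its share of the family's RPKM went from 11.1% to 4.18%. Other endothelial markers were low in every library. Of PECAM1, VWF, KDR, TEK and CLDN5, only PECAM1 passed an RPKM of 1, and it was higher in shMAML2 (0.0342 against 1.12), so that the summed RPKM of the 5 was between 0.338 and 0.438 in shCtl and between 1.09 and 1.5 in shMAML2. VWF, TEK and CLDN5 were at or below 0.0855 in every library, and VWF had 6 and 18 counts under shCtl and 2 and 0 under shMAML2.

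CDH24 (chr14:23047062-23057538, minus strand), a type II cadherin that binds the catenins, had an RPKM of 9.36 and 9.87 in shCtl and of 4.34 and 4.75 in shMAML2. The log2 fold change of -1.01 (SE 0.0871, adjusted p = 1.75e-07, edgeR) was close to the 2-fold limit and missed it without shCtl replicate 2 (-0.98) or without shMAML2 replicate 1 (-0.94). CDH18 (chr5:19471296-20575873, minus strand), another neural type II cadherin, went from 2.01 and 1.60 to 0.942 and 0.739. For CDH18 the log2 fold change was -1.03 (SE 0.180, adjusted p = 1.57e-04, edgeR), and it missed the limit without shCtl replicate 1 (-0.86) or without shMAML2 replicate 2 (-0.88). Of the 28 tested members, 19 overlap annotated genes on the opposite strand (all but CDH24, CDH5, CELSR2, CELSR3, CTNND1, FAT4, PCDH18, PCDHB15 and PCDHGC3), and the libraries were not strand-specific, so reads of those genes cannot be separated from theirs.

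The epithelial cadherins lay at or near 0. CDH1 (E-cadherin, chr16:68737292-68835537), the cadherin of epithelial junctions, had 0 and 4 counts under shCtl and 0 and 3 under shMAML2, and CDH3 (P-cadherin) had 11 and 3 against 11 and 11. Neither was tested, and for both the groups overlapped. CDH11, a cadherin of mesenchymal cells, had between 0 and 5 counts in every library. CDH19, a type II cadherin of neural crest and Schwann cell precursors, was the untested CDH gene that differed the most: it had 0 and 2 counts under shCtl and 93 and 88 under shMAML2, at least 27.4-fold higher when shCtl is set to 3 counts per library. Its RPKM reached only 0.539, below the limit for testing.

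Of the catenins that link cadherins to actin or hold them at the membrane, both that were tested were higher in shMAML2 by less than 2-fold. CTNNA1 (alpha-E-catenin, chr5:138610967-138935034) had an RPKM of 58.1 and 58.0 in shCtl and of 71.0 and 72.6 in shMAML2, a log2 fold change of 0.37 (SE 0.0392, adjusted p = 1.36e-06, edgeR). CTNND1 (delta-1-catenin, chr11:57753243-57819546), which binds the membrane-proximal part of the cadherin tail, went from 25.1 and 23.5 to 44.3 and 43.6, a log2 fold change of 0.92 (SE 0.0451, adjusted p = 5.05e-10, edgeR). In both genes both shMAML2 libraries lay above both shCtl libraries, as in 38.9% of all genes tested, and neither was called. CTNNA2, CTNNA3 and CTNND2, their relatives of brain, heart and testis, had at most 24 counts in a library and were not tested.

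Of 20 junction partners outside the member list (armadillo proteins, plakins, nectins and actin linkers), 13 were tested, of which 0 were called higher and 1 lower, against 9.24% and 8.93% of all genes tested. In edgeR's test 5 were higher and 5 lower at an unadjusted p under 0.05, and the same counts hold for the adjusted p (72.7% of all genes tested in either direction), while DESeq2 and limma also called 0 higher. CTNNB1 (beta-catenin), the direct partner of classical cadherins, was between 59.0 and 60.3 in shCtl and between 94.7 and 98.4 in shMAML2, a log2 fold change of 0.76 (SE 0.0406, adjusted p = 1.24e-09, edgeR), so it too was higher without being called. The called gene was CTNNAL1 (alpha-catulin), a relative of alpha-catenin and vinculin. Its RPKM was 73.8 and 70.4 in shCtl and 12.6 and 13.5 in shMAML2, a log2 fold change of -2.40 (SE 0.0549, adjusted p = 1.93e-13, edgeR). CTNNAL1 was thus above CTNNA1 in shCtl and below it in shMAML2.

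**Figure D3:**
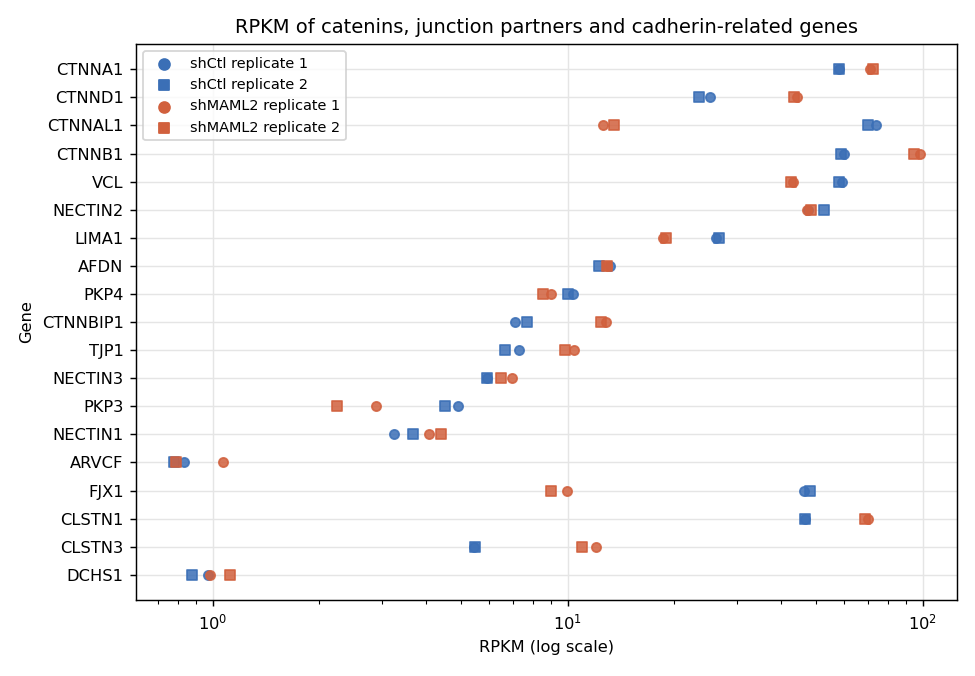
RPKM (log scale) of the tested alpha and delta catenins (top), the tested junction partners (middle, from CTNNAL1 to ARVCF) and the tested cadherin-related genes (bottom, from FJX1 to DCHS1) in each of the 4 libraries; colours and symbols stand for group and replicate. CTNNAL1 and FJX1 lie far to the left in shMAML2, and CTNNA1, CTNND1 and CTNNB1 lie to the right by less than 2-fold.

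Desmosomal cadherins were nearly confined to DSG2 (desmoglein 2, chr18:31498177-31549008), the most widely expressed desmoglein. DSG2 had an RPKM of 3.86 and 3.29 in shCtl and of 2.30 and 2.45 in shMAML2. The groups did not overlap, but the log2 fold change of -0.52 (SE 0.109, adjusted p = 7.21e-04, edgeR) was short of the limit. DSC2, its usual companion, was between 0.171 and 0.299 in the 4 libraries with overlapping groups, and DSC1, DSC3 and DSG1 had at most 3 counts in a library. Of the cytoplasmic desmosome genes, JUP (plakoglobin), PKP1 and PKP2 had at most 6 counts in a library. PKP3, another plakophilin, had an RPKM of 4.91 and 4.52 in shCtl and of 2.88 and 2.24 in shMAML2 (log2 fold change -0.81, SE 0.144, adjusted p = 1.81e-04, edgeR) and was not called. DSP (desmoplakin), which was not tested, had 90 and 130 counts under shCtl and 30 and 30 under shMAML2.

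Of the 4 giant cadherins that were tested, 1 CELSR gene was called higher and 0 FAT genes were called, against 9.24% higher and 8.93% lower over all genes tested. The called gene, CELSR2, passed the filter in shMAML2 libraries only, so the filter favoured its call. CELSR2 (chr1:109249539-109275751, plus strand), a cadherin of planar cell polarity, rose from an RPKM of 0.539 and 0.526 to 1.99 and 1.67 (log2 fold change 1.85, SE 0.129, adjusted p = 2.05e-08, edgeR). Its relative CELSR3, known for axon guidance, was the most abundant of the CELSR genes, at 2.24 and 2.52 in shCtl and 4.32 and 4.27 in shMAML2. CELSR3 was not called at a log2 fold change of 0.92 (SE 0.0726, adjusted p = 7.29e-08, edgeR) and reached 1.00 without shCtl replicate 2, which put it past the limit. CELSR1 had at most 8 counts in a library.

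FAT1 and FAT4, which are both linked to Hippo signalling and growth control, differed in direction. FAT1 (chr4:186587794-186726722) had an RPKM of 6.48 and 6.60 in shCtl and of 9.33 and 9.20 in shMAML2, a log2 fold change of 0.57 (SE 0.0437, adjusted p = 5.61e-08, edgeR). FAT4 (chr4:125314918-125492932) went from 3.24 and 3.07 to 1.65 and 1.63, a log2 fold change of -0.88 (SE 0.0690, adjusted p = 7.08e-08, edgeR). Neither was called. In both genes the groups were apart, as in 38.9% (shMAML2 above) and 47.1% (shMAML2 below) of all genes tested. DCHS1, the cadherin that serves FAT4 as ligand, was between 0.874 and 1.12 in the 4 libraries (log2 fold change 0.26, adjusted p = 0.0940, edgeR). FJX1, the relative of the fly kinase four-jointed that modifies Fat and Dachsous, fell from an RPKM of 46.3 and 48.2 to 9.96 and 8.99 (log2 fold change -2.25, SE 0.0620, adjusted p = 1.27e-12, edgeR). FJX1 belonged to a list of 12 cadherin-related genes, of which 11 were in the tables and 4 were tested, with 1 called higher and 1 lower, beside 9.24% and 8.93% of all genes tested. CLSTN3 (calsyntenin 3), a synaptic protein with cadherin domains, was the only other gene called on that list and rose from 5.46 and 5.47 to 12.01 and 11.01 (log2 fold change 1.14, SE 0.0747, adjusted p = 1.07e-08, edgeR).

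Among the 11 protocadherins outside the clusters, 1 of the 2 tested rose and 1 fell, where all genes tested gave 9.24% higher and 8.93% lower. The filter favoured both calls, since PCDH18 passed it in shMAML2 libraries only and PCDH15 in shCtl libraries only. PCDH18 (chr4:137518918-137532494, minus strand), a delta-protocadherin, rose from an RPKM of 0.677 and 0.928 to 1.73 and 1.78 (log2 fold change 1.19, SE 0.173, adjusted p = 3.11e-05, edgeR), and its value without shCtl replicate 1 was 0.99, just short of the limit. PCDH15 (chr10:53802771-55627942, minus strand), a component of the tip links of hair cells, fell from 1.24 and 1.16 to 0.446 and 0.485 (log2 fold change -1.30, SE 0.124, adjusted p = 4.94e-07, edgeR). PCDH7, another delta-protocadherin, stayed below the limit for testing but had 49 and 25 counts under shCtl and 289 and 216 under shMAML2. PCDH20 had 0 and 1 counts under shCtl and 17 and 11 under shMAML2, at least 4.19-fold higher against 3 counts per library. PCDH10, a delta-protocadherin of the brain, was between 0.446 and 0.811 with overlapping groups, and PCDH9 had 119 and 92 counts in shCtl against 69 and 43.

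The clustered protocadherins were the largest group, with 56 of the 104 members, and 11 of the 12 of them that were tested were called higher and 0 lower by edgeR, with 0 lower at an unadjusted p under 0.05 as well, against 9.24% higher and 8.93% lower over all genes tested. Of the 11, 7 passed the RPKM filter in shMAML2 libraries only, so the filter favoured their calls. In hg38 they lie on chromosome 5 in the order PCDHA (chr5:140786136-141012347, 15 genes), PCDHB (chr5:141094606-141249365, 18 genes) and PCDHG (chr5:141330514-141512977, 23 genes). The counts of these genes carry an uncertainty of their own. PCDHG variants all end in the same constant exons, as do the PCDHA variants, so a read in those exons belongs to no single gene. Within 0.01 of a whole number lay 8.70% to 17.4% of the PCDHG values in a library, 33.3% to 73.3% of the PCDHA values, many of which are at or near 0, and 16.7% to 72.2% of the PCDHB values. PCDHB genes have a single exon each but resemble one another closely. A sum over a cluster is not touched by how its reads were divided among its genes, and such sums are given as a description without a test.

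Summed over each cluster and scaled with edgeR's TMM factors, PCDHG reached 107 and 105 CPM (counts scaled to a common library total) in shCtl and 381 and 389 in shMAML2, a ratio of 3.63. PCDHB reached 35.7 and 37.2 in shCtl and 77.8 and 74.5 in shMAML2, a ratio of 2.09. PCDHA was much lower, at 3.78 and 3.25 against 6.78 and 7.05, a ratio of 1.97. Without PCDHA6 the PCDHA sum was 1.55 and 1.497 in shCtl and 1.49 and 1.88 in shMAML2, a ratio of 1.11 with overlapping groups. Unlike a full cluster sum, such a partial sum depends on how reads in shared exons were divided. In all 3 full clusters both shMAML2 libraries lay above both shCtl libraries. Over the 56 genes together the sum went from 146 ± 0.317 (SD, n = 2) to 468 ± 3.57, which is 3.21 times the shCtl level.

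**Figure D4:**
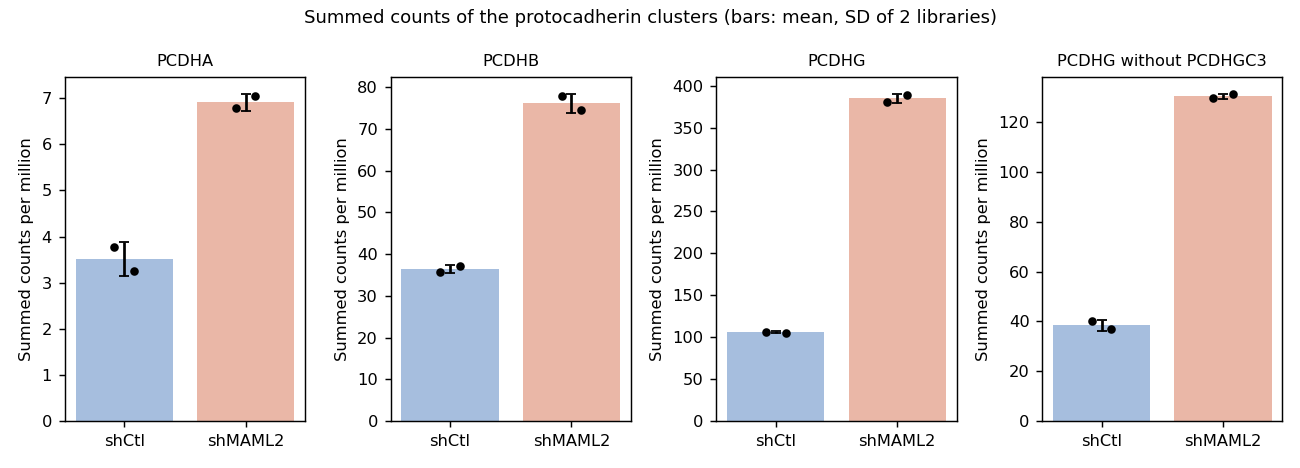
Summed CPM (TMM scaled) of the PCDHA, PCDHB and PCDHG clusters and of PCDHG without PCDHGC3; points are the 2 libraries of each group, bars their mean and error bars their SD, and each panel has its own axis from 0. The shMAML2 bars stand at 1.97, 2.09, 3.63 and 3.39 times the shCtl bars, from left to right. The last panel is a partial sum and depends on how reads in shared exons were divided among the genes.

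**Figure D5:**
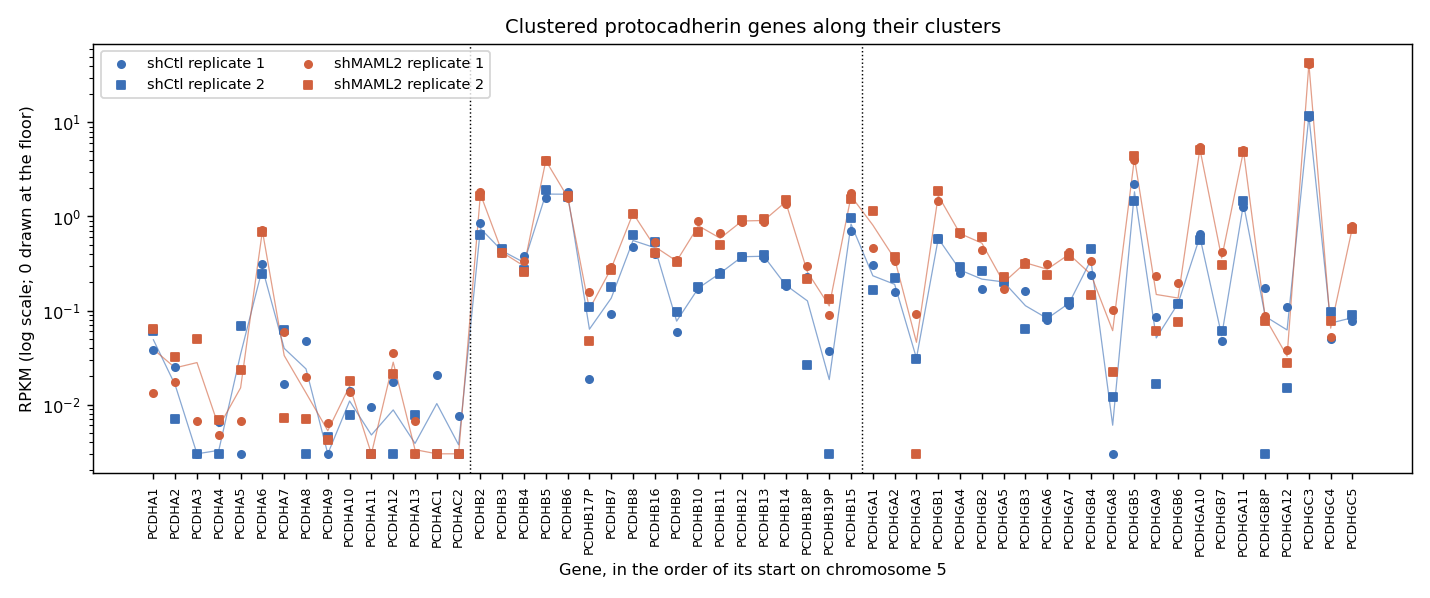
RPKM (log scale, with 0 and lower values drawn at the bottom) of the 56 clustered protocadherin genes in the order of their starts on chromosome 5, with dotted lines between the PCDHA, PCDHB and PCDHG clusters; points are libraries and thin lines join the group means. The red points of shMAML2 lie above the blue ones over much of the PCDHB and PCDHG clusters, for example at PCDHB14, PCDHGA10, PCDHGC3 and PCDHGC5, and the groups run together at PCDHB3, PCDHB4, PCDHB6, PCDHGA5 and PCDHGC4.

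PCDHGC3 (chr5:141475947-141512977, plus strand) carried the bulk of the gamma cluster. This C-type gene, which unlike most clustered protocadherins is widely expressed outside neurons, had an RPKM of 11.5 and 11.8 in shCtl and of 41.6 and 42.3 in shMAML2. It rose by a log2 fold change of 1.91 (SE 0.0459, adjusted p = 2.87e-13, edgeR), or 3.77-fold. PCDHGC3 held 63.7% of the cluster's counts in shCtl and 66.1% in shMAML2, and the rest of the cluster went from 38.5 to 130 CPM (3.39 times). These shares and this partial sum depend on how reads in the shared exons were divided. The rise of the rest therefore cannot be separated from that of PCDHGC3. PCDHGC5, another C-type gene, remained below the limit for testing, at 9 and 11 counts under shCtl and 114 and 96 under shMAML2, whereas PCDHGC4 had overlapping groups of 6 and 11 against 7 and 10 counts.

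All 6 tested PCDHG genes rose, beside 9.24% of all genes tested, but 3 of them (PCDHGA1, PCDHGA10 and PCDHGB1) passed the filter in shMAML2 libraries only. PCDHGA10 (chr5:141412987-141512975) went from an RPKM of 0.657 and 0.560 to 5.41 and 5.04, a log2 fold change of 3.17 (SE 0.133, adjusted p = 9.89e-11, edgeR). PCDHGA11 went from 1.25 and 1.47 to 5.10 and 4.83 (log2 fold change 1.94, SE 0.106, adjusted p = 1.70e-09, edgeR). Only PCDHGB7 lies between these 2 genes in the cluster, and it was not tested, with 5 and 7 counts under shCtl and 59 and 39 under shMAML2. PCDHGB1 went from 0.589 and 0.577 to 1.47 and 1.87 (log2 fold change 1.58, SE 0.208, adjusted p = 1.22e-05, edgeR). PCDHGB5 went from 2.20 and 1.46 to 3.98 and 4.36 (log2 fold change 1.25, SE 0.156, adjusted p = 6.90e-06, edgeR), and its value without shCtl replicate 2 was 0.98. PCDHGA1, the first gene of the cluster, rested on few counts that differed between replicates. It had 33 and 18 counts under shCtl and 62 and 139 under shMAML2, and its log2 fold change of 1.85 (SE 0.450, adjusted p = 0.00223, edgeR) went to 1.06 with an adjusted p of 0.0749 when shMAML2 replicate 2 was left out. Among the 17 PCDHG genes that were not tested, 9 had both shMAML2 libraries above both shCtl libraries in RPKM, 0 had both below, and 8 overlapped, against 23.8% above and 19.0% below over all genes that were not tested.

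Of the 6 tested PCDHB genes, 5 rose, again beside 9.24% of all genes tested. Of these 5, PCDHB5 alone passed the filter in both groups, while PCDHB14, PCDHB15, PCDHB2 and PCDHB8 passed it in shMAML2 libraries only. PCDHB14 (chr5:141223343-141227759) had 17 and 18 counts under shCtl and 154 and 154 under shMAML2, and its RPKM went from 0.187 ± 0.00534 (SD, n = 2) to 1.43 ± 0.10 (log2 fold change 2.99, SE 0.284, adjusted p = 4.94e-07, edgeR). PCDHB5 (chr5:141135206-141138615), the most abundant gene of the cluster, went from 1.56 and 1.90 to 3.96 and 3.88 (log2 fold change 1.24, SE 0.142, adjusted p = 2.98e-06, edgeR). PCDHB2 went from 0.856 and 0.634 to 1.81 and 1.65 (log2 fold change 1.28, SE 0.207, adjusted p = 8.36e-05, edgeR). The remaining pair sat nearer to the limit. PCDHB15 went from 0.699 and 0.960 to 1.76 and 1.53 (log2 fold change 1.05, SE 0.212, adjusted p = 5.50e-04, edgeR), with 0.84 without shCtl replicate 1 and 0.95 without shMAML2 replicate 1. PCDHB8 went from 0.478 and 0.633 to 1.09 and 1.07 (log2 fold change 1.03, SE 0.308, adjusted p = 0.00831, edgeR), with 0.86 and an adjusted p of 0.0610 without shCtl replicate 1. PCDHB6, which lies next to PCDHB5, was not called and had overlapping groups, at 1.82 and 1.63 in shCtl and 1.56 and 1.65 in shMAML2 (log2 fold change -0.04, SE 0.183, adjusted p = 0.866, edgeR). Of the 12 PCDHB genes that were not tested, 7 had both shMAML2 libraries above both shCtl libraries, 0 had both below and 5 overlapped, beside the same 23.8% and 19.0%.

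None of the 15 PCDHA genes reached an RPKM of 1. PCDHA6 was the most abundant, at 0.313 and 0.247 in shCtl and 0.715 and 0.691 in shMAML2, and it carried most of the cluster's counts (45 and 36 against 126 and 110). The other 14 were below a mean RPKM of 0.1 in both groups, and 12 of the 15 had overlapping groups. In 3 of the 15 both shMAML2 libraries lay above both shCtl libraries and in 0 both lay below, beside 23.8% and 19.0% of all genes that were not tested.

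Promoter sequences are shown because each clustered gene has a promoter of its own. RefSeq promoters (GRCh38.p14, 250 bases before to 50 bases after the gene start) were found for 79 of the 104 members, among 27305 symbols in all. The promoters of clustered protocadherins are known to share a conserved sequence element, and for each cluster the 8 letters that most of its promoters share, on either strand, were searched for. In PCDHB these were GGTGGCGC (reverse GCGCCACC), found in 13 of 13 promoters and in 2.74% of all promoters. The 5 PCDHB genes that rose read as follows, with 30 bases each, plus strand, and the shared letters in capitals.
PCDHB14, chr5:141223263-141223292: tggagacacatGGTGGCGCtacaggataag
PCDHB5, chr5:141135179-141135208: ttaggacgcctGGTGGCGCtgcaggctaag
PCDHB2, chr5:141094544-141094573: aagagacgcggGGTGGCGCtgcagccttag
PCDHB15, chr5:141245314-141245343: agacaacgcatGGTGGCGCtgcaggctaag
PCDHB8, chr5:141177777-141177806: tgaggacccgtGGTGGCGCtgcaggataag
The letters also stand in PCDHB3 and PCDHB4, whose groups overlapped and which are shown for contrast.
PCDHB3, chr5:141100393-141100422: agcgaacgcatGGTGGCGCtgttgactaag
PCDHB4, chr5:141121723-141121752: tcaagacgcagGGTGGCGCtgcaggctaag

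In PCDHG the most shared letters were GCCGCTGT (reverse ACAGCGGC), present in 11 of 20 promoters and in 1.98% of all. They stand in 5 of the 6 PCDHG genes that rose, the exception being PCDHGA11. The letters also stand in 6 untested PCDHG genes. Of these, PCDHGA9, PCDHGB4, PCDHGB6 and PCDHGC4 had overlapping groups, and PCDHGA7 and PCDHGA8 were higher in both shMAML2 libraries. PCDHGC4 is shown for contrast. All windows are on the plus strand with the shared letters in capitals.
PCDHGC3, chr5:141475883-141475912: ggactctgtgtGCCGCTGTcggccaatgaa
PCDHGA10, chr5:141412934-141412963: ggactctgagcGCCGCTGTtcacctactag
PCDHGB5, chr5:141397866-141397895: tgactctgggcGCCGCTGTtggccaaagtg
PCDHGB1, chr5:141350028-141350057: aacctctgggcGCCGCTGTcgaccaaaagg
PCDHGA1, chr5:141330406-141330435: ggactgtgggcGCCGCTGTtcactaatctg
PCDHGC4, chr5:141484955-141484984: tgagcccgggaGCCGCTGTctgccaatcgg
In PCDHA the letters were ATGTCGCT (reverse AGCGACAT), in 9 of 13 promoters and 0.282% of all, and PCDHA6 is shown as the most abundant of them.
PCDHA6, chr5:140827898-140827927: ggagccgcatgATGTCGCTgtctaccatga
The letters of each cluster were chosen for being shared within it, and none of the 3 sets was found in the promoters of the other 2 clusters.

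The core letters to which TEAD factors, the partners of YAP1 and of the fusion, are known to bind were searched for as well. GGAATG (reverse CATTCC) was present in 16.7% of all promoters and in 12.7% of the members' promoters. Of the 13 called higher members with a promoter, 2 held it, both in PCDHG. The window of PCDHGA1 is shown with the letters in capitals, on the plus strand.
PCDHGA1, chr5:141330375-141330404: cagtatttgctaGGAATGcagtaactggtt
No printed window holds more than 1 of the letter sets searched for. The promoters cover only the stretch around a gene start, and a match is a description of sequence, not of binding.

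Genes known to regulate the clusters were read from a list of 10 (CTCF, cohesin subunits and their loader and release factors, SMCHD1 and DNMT3B), all of which were tested. Of these 0 were called higher and 1 lower by edgeR, and DESeq2 and limma called 0 higher as well. In edgeR's test 4 were higher and 2 lower at an unadjusted p under 0.05. The same counts hold for the adjusted p, which 72.7% of all genes tested passed in either direction. Over all genes tested 9.24% were called higher and 8.93% lower. DNMT3B, a de novo DNA methyltransferase that methylates protocadherin promoters, fell from an RPKM of 2.06 and 2.44 to 0.988 and 1.07 (log2 fold change -1.06, SE 0.163, adjusted p = 5.21e-05, edgeR), and its value without shCtl replicate 2 was -0.94. CTCF, which loops the promoters to their enhancers, was between 10.2 and 10.9 in shCtl and between 14.7 and 14.9 in shMAML2 (log2 fold change 0.55, SE 0.0636, adjusted p = 3.21e-06, edgeR) and was not called. STAG1, a cohesin subunit, had the same log2 fold change of 0.55 (SE 0.0611, adjusted p = 2.55e-06, edgeR).

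The 76 members below the limit for testing held few counts: 28 of the 104 members had 0 counts in some library, and 43 had a mean RPKM under 0.1 in both groups. In 28 of the 76 both shMAML2 libraries lay above both shCtl libraries, against 23.8% of all 7469 genes that were not tested, in 5 both lay below, against 19.0%, and in 43 the groups overlapped. When the RPKM filter was dropped and every gene with a count was fitted, 33 of the 104 members were called higher, against 8.45% of all genes, and 6 lower, against 7.76%. Of these calls 19 higher and 2 lower concerned members that the filter had removed. Of the 19, 14 were clustered protocadherins (7 in PCDHG, 6 in PCDHB and 1 in PCDHA), which also made up 44 of the 76 untested members. The 2 lower ones were CDH15 (M-cadherin, a muscle cadherin), with 23 and 42 counts under shCtl and 15 and 6 under shMAML2, and PCDH9.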

How the data were processed

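RNA-seq of 2 shCtl and 2 shMAML2 libraries was analysed, grouped by the labels. Paired-end reads (150 bases) were mapped by the authors with HISAT2 2.0.4 on hg38. They dropped ambiguous reads and those below a mapping quality of 10, and Partek 7.18 assigned the rest to RefSeq genes. They deposited estimated counts per gene, which are not normalized, and RPKM values per gene. Reads removed as ambiguous cannot be recovered, which can lower genes with near-identical copies such as the PCDHB genes.

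After rounding of the estimated counts to whole numbers, the quasi-likelihood test of edgeR 4.0.16 (R 4.3.3, TMM factors, no block) was run over the 12157 genes that passed an RPKM of 1 in any library, with Benjamini-Hochberg adjustment over all of them. The standard error is the log2 fold change divided by the square root of F. The labels call the libraries biological replicates, and p-values set the difference between groups against the spread between these samples only. Pairs of replicates differed by more than sampling noise (chi-square per degree of freedom 3.46 in shCtl and 3.98 in shMAML2), so all 4 were kept. Where both libraries of a group held at most 3 counts, the fold is a lower bound against 3 counts per library. With 2 libraries per group each SD is rough, and counting error weighs most on low genes; edgeR's biological coefficient of variation was 0.0485. In a simulation of 12157 genes, 200 of 200 changed genes (4-fold or 8-fold) were recovered and 0 unchanged genes were called.

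Members and gene lists were chosen with earlier results of these data known, so they give no independent support. Values in every library are given for called members, for CDH1, CDH2, CDH3 and CDH5, for the most abundant member of each family and for the tested catenins, and other members are given by count and range. Other genes named with values, such as CDH19, PCDH7, PCDH20, PCDHGB7, PCDHGC5, PCDH9, CDH15, DSP and the tested members that were not called, were chosen after their values were seen. Positions come from GENCODE 44 (hg38) for 104 of 104 members, and promoters from RefSeq (GRCh38.p14). Alternatives were DESeq2 1.42.0, total counts, other filters and fold limits, limma 3.58.1 on log2(RPKM + 0.1) or on log2(RPKM + 1), a block for the replicate number, and fits that leave out 1 library. A filter on the mean RPKM and sums of RPKM over clusters were added after the data were seen. Protein sequences were not used here. A marker gene and a promoter motif search are not reported here.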

Additional observations from a re-analysis of the deposited data

How the results depend on the processing

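The 14 higher and 4 lower members stayed at 14 and 4 with DESeq2. With limma on log2(RPKM + 0.1) they were 12 and 4. With limma on log2(RPKM + 1), 5 members were called higher and 1 lower, and the median log2 fold change of tested members was 0.58. That pseudocount shrinks the changes of genes near an RPKM of 1, and 14 of the 33 genes followed lost their call (CDH18, CDH24, CELSR2, PCDH15, PCDH18, PCDHB15, PCDHB2, PCDHB5, PCDHB8, PCDHGA1, PCDHGB1, PCDHGB5, CLSTN3 and DNMT3B). In the same test 596 genes in all were higher, 0 cadherin-related genes were higher and 0 regulators were lower. Without a filter on low values, 33 members were called higher, the median was 0.77, 2 junction partners were lower and 3 cadherin-related genes were higher. With a mean RPKM above 1, a filter added after the data were seen, 11 members were called higher and 3 lower. At a fold limit of 1.5, 2296 genes were higher and 2302 lower, with 3 junction partners higher and 2 lower and 2 cadherin-related genes higher. With no fold limit, 4414 genes were higher and 4430 lower, with 5 junction partners higher and 5 lower, 2 cadherin-related genes higher, and 4 regulators higher and 2 lower. Total counts in place of TMM factors took away the call of PCDHB8, and limma on log2(RPKM + 0.1) those of PCDHB15 and PCDHB8.

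With each library left out in turn, between 11 and 14 members were called higher and 3 lower, the number of junction partners called lower was 1 to 2, and that of regulators called lower was 0 to 1. The calls lost were those of CDH18, PCDH18, PCDHB15 and PCDHB8 without shCtl replicate 1, CDH24, PCDHGB5 and DNMT3B without shCtl replicate 2, CDH24 and PCDHB15 without shMAML2 replicate 1, and CDH18 and PCDHGA1 without shMAML2 replicate 2. With a library left out, CDH12 had a log2 fold change between -0.20 and 0.092 (-0.06 in full) and PCDHB6 one between -0.12 and 0.046 (-0.04 in full), and no such value was called. CDH12 changed sign without shCtl replicate 1, and PCDHB6 without shCtl replicate 1 or, at 0.012, without shMAML2 replicate 1. The log2 ratio of the PCDHG sum was 1.86, with 1.82 from total counts and 1.79 from summed RPKM, and that of the PCDHB sum was 1.06, with 0.97 from summed RPKM, and the cause of these shifts was not tested.

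Samples with the same replicate number did not deviate together (correlation -0.0287). This value cannot tell whether samples with the same number were prepared together. With a replicate block 14 members were called higher and 4 lower, with 1123 higher and 1079 lower genes in all, and none of the 33 genes followed changed its call.

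The 76 untested members did not pass an RPKM of 1 in any library. A count of 0 allows a level of up to 3 counts in a library. Whether and how PCDHA and PCDHG reads in shared exons were divided among genes is not known here. The values cover 1 hairpin in 1 cell line.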
